A study of Mus musculus with 3 samples.

Results

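A set of 10 genes of the G1 restriction machinery, out of 23185 named genes on the arrays, was followed across radiation doses in mouse haematopoietic stem cells. They were taken by name, as parts of this machinery, with earlier results of these data known: the CDK inhibitor genes Cdkn1b, Cdkn1c, Cdkn2a, Cdkn2c and Cdkn2d, the D cyclin genes Ccnd1, Ccnd2 and Ccnd3, and the kinase genes Cdk4 and Cdk6. All 10 were measured. The cells were sorted from bone marrow as Lin- ckit+ Sca+ Flk2- CD48- CD150+, held overnight in StemSpan SFEM and given 0, 0.02 or 2.5 Gy of γ-irradiation. RNA was extracted 2 h later. There is 1 array per dose, here called unirradiated, low dose and high dose. The strain, age and number of mice, and whether cells were pooled, are not stated in the labels, and the overnight culture is shared by all 3 groups, the unirradiated cells included.

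Entry into the cell cycle is set in G1 by D cyclins, which bind and activate CDK4 or CDK6. These kinases phosphorylate the retinoblastoma pocket proteins, which releases E2F transcription factors. INK4 proteins bind CDK4 and CDK6 directly and keep them from cyclin D, while CIP/KIP proteins bind assembled cyclin-CDK complexes, chiefly those with CDK2. In long-term haematopoietic stem cells, most of which rest in G0, p57 and p27 are known to hold cells in quiescence, and CDK6 is known to govern how quickly a resting cell leaves it.

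With 1 array per dose there is no replicate spread, so no difference here has a replicate check and no p-value is given. Values are the deposited log2 values, and differences are in log2 units between single arrays. A gene is counted as past the size threshold at a difference of at least 2-fold (1 on the log2 scale). A level minimum of 4.553, the median over named genes of the mean of the 3 arrays, left 11593 genes as the background for every share given. Of the 10 genes, 8 were past this minimum; Cdkn2a (mean 4.55) and Ccnd1 (mean 4.52) were just under it. Whether a gene of that level was above background is not known here. Values of different genes come from different probe sets and are not set against each other.

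The arrays were alike overall (Pearson's r of 0.957 to 0.965 between pairs, across 25206 probe sets, which are not independent replicates). Of 12 sorting and stem cell genes found, 11 reached the level minimum on each array. Cd48, a gene of a marker selected against, was under it on all 3 (3.31 to 3.62). Flt3, the gene of Flk2, a marker also selected against, was among the 11 and reached the minimum on all 3. Of 22 genes of other lineages, 14 to 16 reached it, the platelet gene Pf4 highest at 9.05 to 9.51, while the T cell gene Cd3e and the B cell gene Ms4a1 were under it on every array. The median difference over the lineage genes past the minimum was −0.01 after 0.02 Gy and −0.00 after 2.5 Gy, each against unirradiated, and −0.09 between the doses. Single genes went both ways, 7 above 0 and 8 below at each dose. Differences ran from −0.80 (Siglech) to 0.94 (Elane) after 0.02 Gy, and from −0.62 (Nkg7) to 0.70 (Mpo) after 2.5 Gy. The part of the lineage genes in the results below was not tested. In such bulk samples, fewer cells of a type and less RNA per cell cannot be told apart.

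In high dose minus unirradiated the kinase genes parted by 1.18, the widest gap within a class of the 10 genes, so the 250 bases before the start of each are shown, from RefSeq on GRCm38.p6, with the E-box CACGTG in capitals. The Cdk4 stretch is chr10:127063285-127063534 and the Cdk6 stretch chr5:3343643-3343892, both on the plus strand.
Cdk4: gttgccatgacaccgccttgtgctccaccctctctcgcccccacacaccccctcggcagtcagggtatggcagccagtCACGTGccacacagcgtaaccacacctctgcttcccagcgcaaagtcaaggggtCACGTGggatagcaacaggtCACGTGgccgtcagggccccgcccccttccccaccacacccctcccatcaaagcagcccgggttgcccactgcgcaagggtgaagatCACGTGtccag
Cdk6: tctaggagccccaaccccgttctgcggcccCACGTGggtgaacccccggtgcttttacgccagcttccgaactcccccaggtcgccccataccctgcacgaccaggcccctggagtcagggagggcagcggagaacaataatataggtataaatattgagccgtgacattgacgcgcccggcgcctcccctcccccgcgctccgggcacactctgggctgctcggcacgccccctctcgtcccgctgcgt
The Cdk4 stretch holds 4 matches, at 172, 118, 98 and 11 bases before the start, and the Cdk6 stretch 1, at 220 bases. At least 1 match is in 6.02% of 32851 stretches of the same length, and at least 4 are in 7 of them, from 5 genes. The E-box is read by basic helix-loop-helix factors such as MYC with MAX; a match is a description of letters and not a binding site. The Cdk6 stretch also holds TATAAA, at 103 bases, as do 12.4% of stretches.

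In all, 7 of the 10 genes had a stretch in the RefSeq table, 10 stretches together, and both strands were searched. The E2F motif, sought as TTTCCCGC, TTTCGCGC, TTTGCCGC or TTTGGCGC, was matched only before the upstream start of Cdkn2a (TTTCCCGC, 99 bases before it), against 1.86% of all stretches. The GC box GGGCGG was matched in 7 of the 10 stretches, from every one of the 7 genes but Cdk6, and in 32.7% of all stretches. The other letters sought were CCAAT (33.9% of all stretches), the FOXO motif GTAAACA (3.17%; 1 match, in Ccnd3) and the AP-1 motif TGANTCA (6.75%). The NF-κB motif was sought as GGGRNWYYCC (3.90%). A pair of p53 half-sites was sought as RRRCWWGYYY with a short gap allowed between them (0.0639%). Here R is A or G, Y is C or T, W is A or T, and N is any base. The last 3 motifs had no match in these stretches, which says only that those letters are not there.

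Among the kinase genes, Cdk6 stood at successively higher values with dose, and Cdk4 did not. Cdk6, a catalytic partner of the D cyclins (Entrez gene 12571), was at 6.01 on the unirradiated array, 6.73 after 0.02 Gy and 7.17 after 2.5 Gy. The low-dose array was 0.72 (1.65-fold) and the high-dose array 1.17 (2.25-fold) above the unirradiated array. Both of these differences rest on the same unirradiated array. The step from low to high dose, which does not use it, was 0.45 (1.36-fold).

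Cdk6 was the only one of the 10 genes past 2-fold in any comparison. In high dose minus unirradiated that is 1 of 10 higher and 0 lower, against 1.15% and 0.578% of the 11593 genes. In low dose minus unirradiated 0 of 10 were past 2-fold either way, against 1.33% higher and 1.14% lower. In high dose minus low dose it was also 0 of 10, against 1.44% higher and 1.06% lower. By size, 84 of the 11593 genes (0.725%) had a higher difference than Cdk6 at the high dose, 484 (4.17%) at the low dose and 1163 between the doses.

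Cdk4, the other partner of the D cyclins (Entrez gene 12567), was at 5.93, 6.02 and 5.92 on the unirradiated, low-dose and high-dose arrays. Its range of 0.10 was the smallest of the 10 genes, and its sign against the unirradiated array at the high dose (−0.01) turned with the scaling (0.03 after median centring). The difference of Cdk6 at the high dose exceeded that of Cdk4 by 1.18, and at the low dose by 0.64. Both gaps use the same unirradiated array, and between the doses, without it, the gap was 0.55. The kinase genes thus had unequal differences between the same single arrays, with no replicate check.

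**Figure D1:**
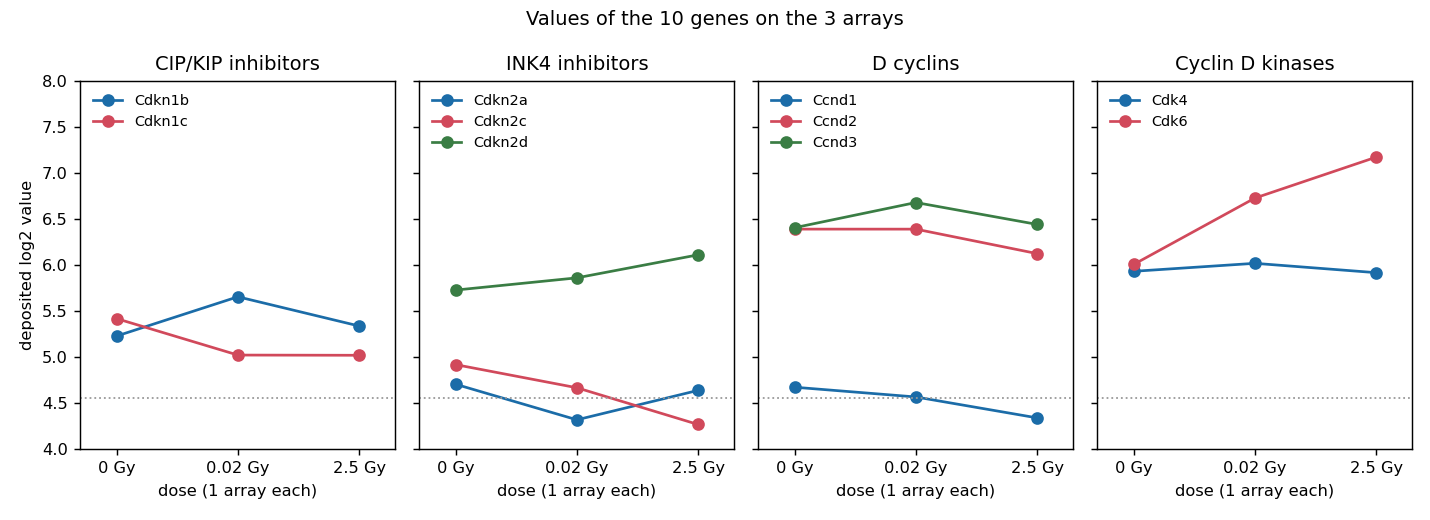
Deposited log2 values (vertical axis) of the 10 genes on the unirradiated, 0.02 Gy and 2.5 Gy arrays (horizontal axis), 1 point per array, with the level minimum of 4.553 dotted. Lines join the same gene; Cdk6 goes from 6.01 to 6.73 to 7.17 while Cdk4 stays between 5.92 and 6.02.

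The CIP/KIP genes of quiescence differed in direction at the low dose. Cdkn1b, which encodes p27 (Entrez gene 12576), was at 5.23 unirradiated, 5.65 after 0.02 Gy and 5.34 after 2.5 Gy. Only the low-dose array stood out, 0.43 (1.34-fold) above the unirradiated array, and 14.7% of genes had a higher difference. At the high dose the difference was 0.11.

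Cdkn1c, which encodes p57 and is expressed from the maternal allele (Entrez gene 12577), was at 5.42, 5.02 and 5.02. Both irradiated arrays were 1.32-fold lower than the unirradiated array (−0.40 each), and they differed from each other by less than 0.01. Because the unirradiated array is shared, that array alone stands apart for this gene. Lower differences were found for 10.9% of genes after 0.02 Gy and 8.55% after 2.5 Gy.

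Cdkn1a, the third CIP/KIP gene, which encodes the p53-induced inhibitor p21, is not one of the 10 and had a larger difference at the high dose than any of them, at 5.65, 6.12 and 7.30. In high dose minus low dose it was 1.19 higher, where Cdkn1b was at −0.32 and Cdkn1c at −0.00.

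Among the INK4 genes, Cdkn2c and Cdkn2d had differences of opposite sign in every comparison of these single arrays. Cdkn2c, which encodes p18, an inhibitor of CDK4 and CDK6 known to limit stem cell self-renewal (Entrez gene 12580), was at 4.92, 4.66 and 4.26. The high-dose array was 1.57-fold lower than the unirradiated array (−0.65), the lowest difference of the 10 genes in any comparison, and 290 genes (2.50%) were lower still. The high-dose value lay under the level minimum, so the size of this difference depends on a value whose signal over background is not known. The step between the doses was −0.40.

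Cdkn2d, which encodes p19INK4D, an inhibitor of the same kinases (Entrez gene 12581), was at 5.73, 5.86 and 6.11, with the high-dose array 0.38 (1.30-fold) above the unirradiated array. At the high dose 14.8% of genes had a higher difference than Cdkn2d. Its difference there exceeded that of Cdkn2c by 1.03, a gap that uses the same unirradiated array. Between the doses, without that array, the gap was 0.65. Both gaps use the high-dose value of Cdkn2c, which lay under the level minimum.

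Cdkn2a encodes both p16INK4A and p19ARF from separate first exons (Entrez gene 12578). It has a single probe set, so these products cannot be told apart. It was at 4.70, 4.32 and 4.64, lowest on the low-dose array, where it was 1.31-fold lower than on the unirradiated array. All 3 values lay near or under the level minimum. Cdkn2b, the INK4 gene beside it in the genome, encodes p15 and was at 5.84, 6.05 and 5.83. Cdkn3, a phosphatase gene read with the other CDK inhibitors, was at 5.31, 4.76 and 5.25, lowest at the low dose.

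The D cyclin genes gave no difference of 1.5-fold or more. Ccnd1 (Entrez gene 12443), the D cyclin most tied to growth factor signals, was at 4.67, 4.56 and 4.34, so it was 1.26-fold lower at the high dose than unirradiated. Ccnd2 (12444) was at 6.39, 6.39 and 6.12, so only the high-dose array was lower, by a difference of −0.27 from either of the others. Ccnd3 (12445), a D cyclin used by blood cell lineages, was at 6.40, 6.68 and 6.44, highest at the low dose, 0.27 above unirradiated and 0.24 above the high dose. All 3 were lower at the high dose than at the low dose, by similar amounts (−0.23, −0.27 and −0.24 for Ccnd1, Ccnd2 and Ccnd3). Such differences were common, as 24.4%, 21.4% and 23.5% of genes were lower still.
After quantile normalization Ccnd2 was at −0.15 at the low dose, against −0.00 as deposited, and Ccnd3 at −0.08 at the high dose, against 0.04. The directions of these values against the unirradiated array are therefore not settled.

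**Figure D2:**
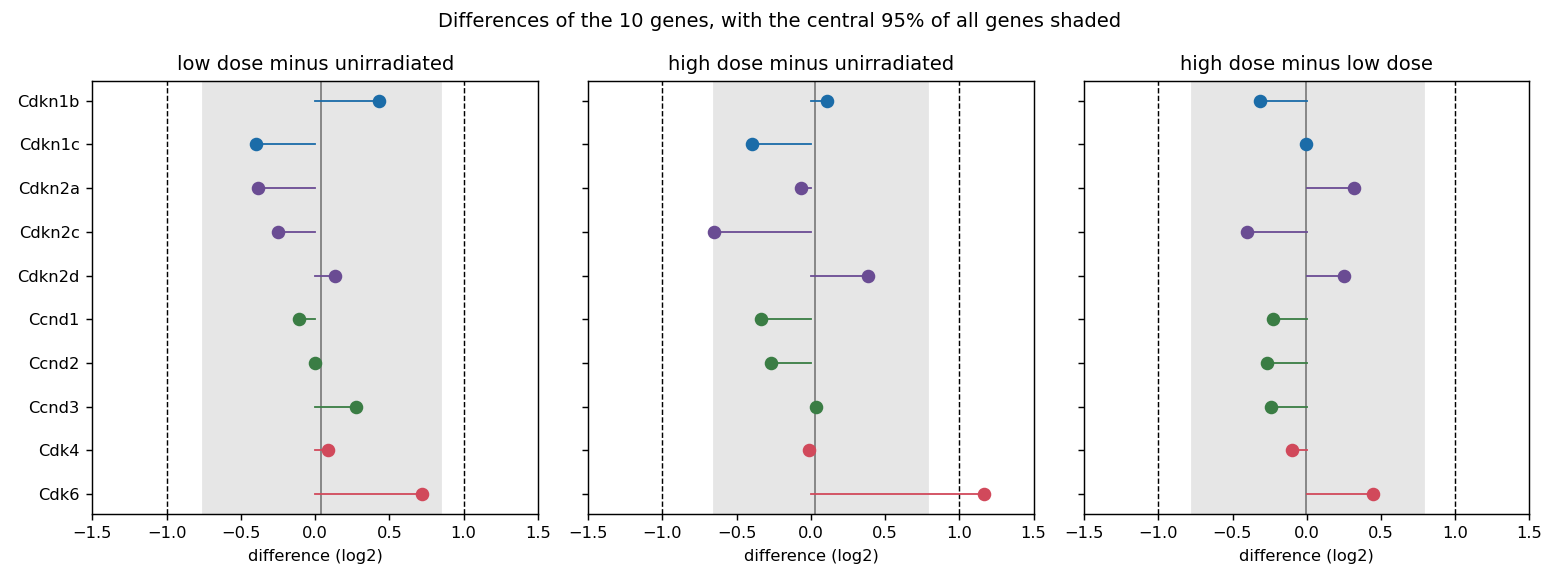
Difference in log2 (horizontal axis) of each gene (vertical axis) in the 3 comparisons, coloured by role (CIP/KIP blue, INK4 purple, D cyclins green, kinases red). The shaded band is the central 95% of the 11593 genes, the grey line their median and the dashed lines 2-fold; Cdk6 at the high dose lies outside the band at 1.17, and Cdkn2c at −0.65 lies on its lower edge.

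Taken as a set, the 10 genes were not shifted one way against the unirradiated array, and more were below 0 than above between the doses. In low dose minus unirradiated 5 were above 0 and 5 below, in high dose minus unirradiated 4 and 6, and in high dose minus low dose 3 and 7. Of all genes, 54.2%, 53.4% and 49.4% were above 0. The medians over the 8 genes past the level minimum were 0.11, 0.01 and −0.17, beside 0.04, 0.02 and −0.00 over all genes. The median between the doses was −0.19 to −0.09 under the other scalings and level minimums. The central 95% of all genes held 10 of the 10 in the first comparison, 9 in the second and 10 in the third. The values of 2 genes, Cdk6 and Cdkn2d, were ordered upward with dose, as were those of 16.9% of genes. Those of 4 genes, Cdkn1c, Cdkn2c, Ccnd1 and Ccnd2, were ordered downward, as were those of 1504 of the 11593 genes, but for Cdkn1c and Ccnd2 one of the steps was under 0.01.

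The profile of Cdk6 was compared with those of 9750 protein-coding genes, by Euclidean distance between the 3 values of each gene centred on its mean. Predicted genes and multigene families were left out by patterns in the symbol, and with them other genes whose symbols start with Tra. The nearest were Lcp1, an actin-bundling protein gene of blood cells (5.43, 6.11 and 6.54; distance 0.041), and Slc25a3, the mitochondrial phosphate carrier gene (6.68, 7.37 and 7.89; 0.050). Next were Ppp1r15a, which encodes GADD34, a phosphatase subunit of the stress response (5.89 unirradiated, with the low dose 0.65 and the high dose 1.11 higher; 0.055), and Mapk1ip1l (4.66, 5.31 and 5.82; 0.055). Over 3 arrays this is a likeness of shape and nothing more. Steps at least as large as both of those of Cdk6 were found for 10 other genes of 11593, of which 4 were among the 9750. These were Btg2 (4.40, 5.24 and 5.95), an antiproliferative p53 target, the chemokine gene Cxcl10 (4.42, 5.24 and 5.88), the glutathione transferase gene Gstm2 (3.69, 4.90 and 5.53) and Ivns1abp (6.86, 7.59 and 8.42), all named after their values were seen. For Btg2, Cxcl10 and Gstm2 the unirradiated value lay under the level minimum, so their first step starts from a value whose signal over background is not known.

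**Figure D3:**
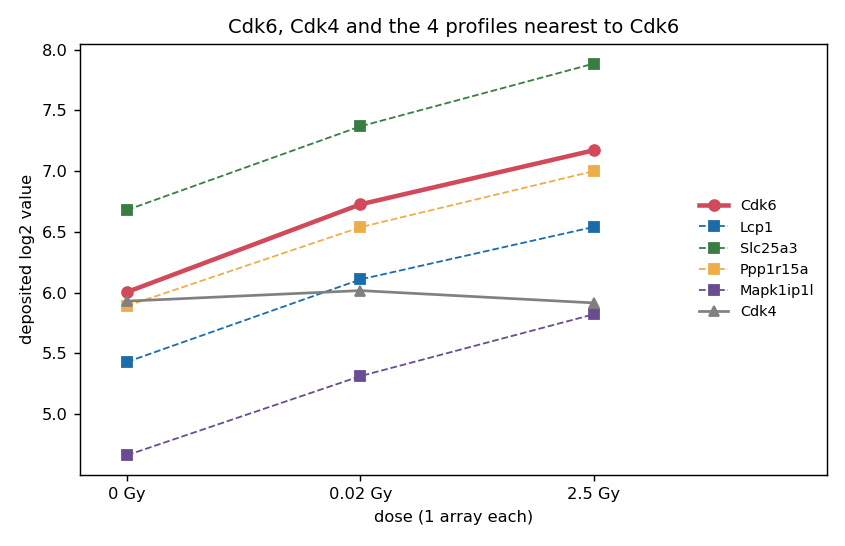
Deposited log2 values (vertical axis) on the 3 arrays (horizontal axis, 1 array per dose) for Cdk6, for Cdk4 and for the 4 genes whose centred profiles lay nearest to that of Cdk6. The 4 nearest profiles run parallel to Cdk6, and Cdk4 stays level; the height of a line is not comparable between genes.

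The other genes of the pathway were read in 7 lists, 87 genes found and 68 past the level minimum. Past 2-fold were 0 of the 68 at the low dose, 1 higher and 0 lower at the high dose, and 2 higher and 1 lower between the doses. These counts are near the background of 1.33% higher and 1.14% lower, 1.15% and 0.578%, and 1.44% and 1.06% of all genes. Of the 87 found, E2f3, whose mean lay under the level minimum, was also past 2-fold at both doses (1.18 and 1.15). The counted genes were Cdkn1a in both comparisons with the high dose, and Cks1b and Skp1 between the doses. The medians over the 68 genes were 0.16, 0.06 and −0.02, beside 0.04, 0.02 and −0.00 over all genes.

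Among pathway genes past the level minimum, the widest differences at the low dose were in the list that turns over p27 and the D cyclins. p27 is marked for destruction by the ubiquitin ligase SCF with SKP2, which needs the cofactor CKS1. Cks1b was at 6.46 unirradiated, 5.56 after 0.02 Gy and 6.69 after 2.5 Gy, so the low-dose array was lowest and the doses differed by 1.12 (2.18-fold). Skp1, the adaptor subunit of SCF ligases, was at 7.25, 8.12 and 7.11, highest at the low dose and 2.01-fold lower at the high dose. Gsk3b, a kinase that marks cyclin D1 for export and destruction, was at 5.38, 6.22 and 6.31, higher on both irradiated arrays. Rnf123, a subunit of another ligase for p27, was at 5.37, 5.13 and 5.08. Ambra1, a ligase adaptor for the D cyclins, was at 6.03, 6.30 and 6.48, and Fbxo31, an F-box protein gene for cyclin D1, at 5.26, 5.33 and 4.94. Of the 10 genes of this list past the minimum, 8 were above 0 at the low dose (median 0.25) and 5 at the high dose (median 0.02), beside 54.2% and 53.4% of all genes. After quantile normalization and loess both medians were lower, at 0.13 at the low dose and −0.14 and −0.09 at the high dose.

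Downstream of the D cyclin kinases, pocket protein and E2F genes lay on both sides of 0. Rb1, the retinoblastoma gene, was at 5.60, 6.02 and 6.17, and Rbbp4, a histone-binding partner, at 5.95, 6.06 and 6.55. E2f4, a repressor E2F of resting cells, was at 5.78 unirradiated, with the low-dose array 0.62 and the high-dose array 0.22 above that. E2f1, an activator E2F, was at 5.87, 5.66 and 5.43. Lin37, a subunit of the DREAM repressor complex, was at 6.65, 6.95 and 6.41, and Lin52, another subunit, at 6.87, 6.66 and 6.97. The E2F partner genes were Tfdp1 (5.98, 5.85 and 6.48), highest at the high dose, and Tfdp2 (5.82, 5.71 and 5.56), lowest there. Of 12 genes past the minimum, 6 were above 0 in each comparison, with medians of 0.01, 0.04 and −0.01 (0.22 at the high dose with the minimum at the 75th percentile).

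The cyclin E and cyclin A engine acts after the D cyclins through CDK2. Cdk2 was at 5.92, 5.47 and 5.56, lower on both irradiated arrays. Ccna2, which encodes cyclin A2, was at 6.29, 6.14 and 6.75, highest at the high dose. Mnat1, the assembly factor of the CDK-activating kinase, was at 6.70, 7.11 and 6.96. The other subunits of that kinase were Cdk7 (4.57, 4.91 and 4.79) and Ccnh (6.44, 6.19 and 6.16), the latter lower on both irradiated arrays. Ccna1, the germ cell cyclin A gene, was at 5.19, 4.81 and 5.24, and Cdc37, a kinase co-chaperone gene, at 5.95, 5.97 and 5.83. Of the 8 genes past the minimum, 4 were above 0 after 0.02 Gy and 5 after 2.5 Gy, with medians of −0.07 (−0.17 after loess) and 0.05.

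Regulators upstream of quiescence past the level minimum were more often above 0 than below on the irradiated arrays. These were 12 of 14 after 0.02 Gy and 10 of 14 after 2.5 Gy, beside 54.2% and 53.4% of all genes. The medians were 0.31 and 0.14, and with the level minimum at the 75th percentile the second was −0.01. Fbxw7 (−0.75 and −0.20) and Gfi1 (−0.22 and −0.15) lay under the level minimum and were below 0 at both doses. Over all 16 found, the medians were 0.25 and 0.12. The effectors of TGF-β signals Smad3 (5.51, 6.07 and 6.17) and Smad2 (4.57, 4.98 and 5.42) were higher on both irradiated arrays. Foxo4, a FOXO factor, was at 6.30, 5.69 and 5.95, and Tgfbr1, a TGF-β receptor gene, at 4.73, 4.94 and 4.26. The FOXO genes went different ways at the low dose, Foxo1 at 5.18, 4.79 and 5.28 and Foxo3 at 5.87, 6.22 and 5.77. Hes1, a Notch target gene, was at 4.73, 5.27 and 4.88. Both comparisons share the unirradiated array, and between the doses 7 of 14 were above 0.

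The imprinted growth genes read with Cdkn1c, taken by name and not by place in the genome, lay on both sides of 0. Many of these genes are known to be expressed in long-term stem cells. Here 9 of the 14 found were past the minimum. Of the 9, 6 were above 0 after 0.02 Gy and 5 after 2.5 Gy, with medians of 0.17 (0.04 without the level minimum) and 0.05. Ndn (5.20, 5.77 and 5.47) and Kcnq1ot1 (5.43, 5.95 and 5.32), a long non-coding RNA of the imprinted domain that holds Cdkn1c, were highest at the low dose. Igf2, a growth factor gene, was lowest there (4.76, 4.18 and 4.84), as was Grb10 (5.78, 5.46 and 5.67), an adaptor of growth factor receptors. H19, the non-coding RNA beside Igf2, was at 5.32, 5.73 and 5.25, and the zinc finger gene Plagl1 at 6.17, 6.31 and 6.36.

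Markers of cycling cells and of G0 exit showed no difference of 2-fold. Pcna, the replication clamp gene, was at 8.19, 8.76 and 8.11, and Cdt1, a licensing factor gene, at 4.57, 4.85 and 5.18. Ccnb2, a mitotic cyclin gene, was at 6.81, 6.74 and 6.40. Top2a, a topoisomerase gene of dividing cells, was at 6.44, 6.78 and 6.61. The genes of the replicative helicase went different ways: Mcm5 was at 4.75, 4.35 and 4.75, Mcm3 at 5.41, 5.23 and 5.44, Mcm7 at 4.93, 5.08 and 5.43, and Mcm2 at 5.66, 5.77 and 5.32. Medians over the 12 past the minimum were 0.15, 0.02 and 0.09. Between the doses the median turned to −0.01 without the level minimum and to −0.33 with it at the 75th percentile, so its direction is not settled.

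**Figure D4:**
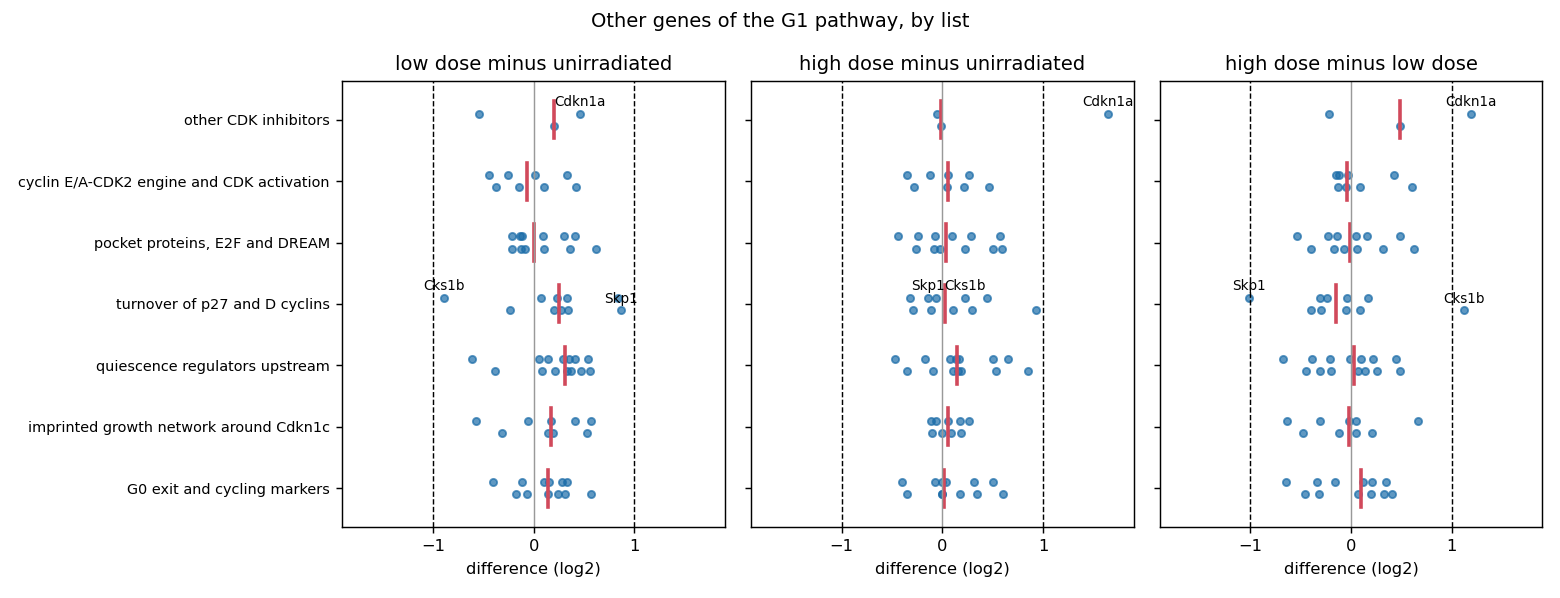
Difference in log2 (horizontal axis) of the 68 pathway genes past the level minimum, 1 point per gene, by list (vertical axis) in the 3 comparisons. Red bars are list medians and dashed lines 2-fold; Cdkn1a lies past it at the high dose (1.65), and Cks1b (1.12) and Skp1 (−1.01) between the doses.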

How the data were processed

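Expression was measured on 3 Affymetrix arrays hybridised with biotinylated whole-transcript cDNA, per the labels' protocols. The authors deposited log2 values for 25206 probe sets on each array, each carrying an Entrez identifier. The submitters' processing notes name Partek alone; its version, the background correction, the normalization and the summarisation are unstated there. That the unit is log2 was inferred from the range of the values. Array medians were 4.60, 4.54 and 4.55.

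Symbols came from the platform table, updated through Entrez identifiers (23185 probe sets named, 2021 not). Differences were taken on the log2 scale with Python 3.11.15 and pandas 2.3.3; loess used statsmodels 0.14.6. With 1 array per group, no test was run. Counting and scaling were tested on simulated data. Alternatives were quantile normalization, median centring, loess over mean level (span 0.3), dropping the level minimum, raising it to the 75th percentile, and folds of 1.5 and 3. Named are the 10 genes, Cdkn1a, the 2 highest and 2 lowest differences past the level minimum of each pathway list per comparison, and the 4 genes nearest to the widest-ranging member. The members and lists were chosen with earlier results of these data known.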

Additional observations from a re-analysis of the deposited data

How the results depend on the processing

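No paired analysis was possible because there is only 1 array for each dose, and for that reason no replicate could be left out. Under quantile normalization, median centring, loess and both other level minimums, the count of the 10 genes past 2-fold was as reported in every comparison. At 1.5-fold 1 gene was higher at the low dose (Cdk6) and 1 lower at the high dose (Cdkn2c). At 3-fold 0 were higher at the high dose. These changes follow from the size chosen, as larger shares of all genes were past 1.5-fold than past 2-fold in every comparison. At the low dose, 1 of 10 was higher, against 7.4959% of all genes at 1.5-fold. At the high dose, 1 of 10 was lower, against 3.4417%. Each count rests on 1 gene, and is 1 of 8 over the genes past the level minimum, on which those shares are based. Across the 3 scalings Cdk6 stayed at 1.05 to 1.21 at the high dose, 0.56 to 0.79 at the low dose and 0.43 to 0.49 between the doses. Cdkn2c stayed at −0.61 to −0.60 at the high dose. Of 90 values of single members, 80 moved by at most 0.1 and 4 changed sign, those of Ccnd2 (0.07 at the low dose after median centring), Cdk4 and Ccnd3; the largest move was 0.16. The member median in high dose minus unirradiated was −0.08 after quantile normalization and loess and −0.04 without the level minimum, against 0.01. Of 105 list medians, 90 moved by at most 0.1 and 20 changed sign. The largest move was 0.83, in the list of other CDK inhibitors at the high dose with the level minimum at the 75th percentile (0.82 against −0.01), which leaves out 1 of its 3 genes. At that minimum the median of cycling markers between the doses was −0.33 against 0.09 and that of upstream quiescence regulators at the high dose −0.01 against 0.14, so the direction of these medians, and of those near 0, is not settled. Precision is limited by having 3 arrays, and signal over background is unknown.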

Other observations

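On either side of each member, the nearest protein-coding gene past the level minimum in the RefSeq order was read for comparison, where there was one. Predicted genes and multigene families were left out, so other genes may lie between a member and a gene called next to it here. Those named here were chosen after their values were seen. Tspan31, a tetraspanin gene next to Cdk4, was at 4.53 unirradiated, 5.70 after 0.02 Gy and 5.66 after 2.5 Gy, while Cdk4 itself stayed within 0.10. Mtap, which encodes an enzyme of methionine salvage and lies next to Cdkn2a, was at 4.15, 5.26 and 5.21, while Cdkn2a was highest unirradiated. On the other side of Cdk4, Cyp27b1 was at 4.66, 4.64 and 4.81, and Fam133b, next to Cdk6, was at 7.08, 7.45 and 6.93. For both Tspan31 and Mtap the unirradiated array stood apart under the level minimum, and the irradiated arrays differed from each other by −0.04 and −0.05.

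E2f3, an activator E2F gene with a mean under the level minimum, was at 3.49 unirradiated, 4.66 after 0.02 Gy and 4.63 after 2.5 Gy. It too was chosen after its values were seen.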
